A study of Rattus norvegicus with 64 samples.

Results

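The nuclear genes of the mitochondrial respiratory chain and of the ATP synthase were followed in RNA from the lungs of 64 rats. Members were taken by name: all gene symbols in the count tables that begin with Ndufa, Ndufb, Ndufc, Ndufs, Ndufv, Uqcr, Cox4 to Cox8 or Atp5, do not end in -ps and have at least 100 counts summed over the 64 libraries. The name rule matched 92 symbols, of which 2 ended in -ps and 3 fell below the count threshold, and 87 of the 30045 symbols of the tables remained. All rats were males of the outbred Sprague-Dawley strain that breathed either filtered air or dust of the sand used in hydraulic fracturing, with exposure of 6 hours daily over 4 days in a chamber that held the whole animal. Lungs were taken 1, 7 or 27 days after exposure. Dust was given at 10 mg/m3 in one study and at 30 mg/m3 in another, each with air rats of its own, which makes 12 groups. In the 10 mg/m3 study each air group and each dust group has 5 rats at days 1 and 7 and 4 rats at day 27, and the 30 mg/m3 study has 6 rats per group. Total RNA came from a piece of lung and was depleted of ribosomal RNA before strand-marking libraries were made. Every library carries its own number in its title, used here as the rat's number. Only those numbers show that no rat was used for more than 1 library, so p-values measure the spread between these libraries.

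The respiratory chain is a set of protein complexes in the inner mitochondrial membrane that passes electrons from NADH and succinate to oxygen and pumps protons, and the ATP synthase uses the returning protons to make ATP. Most subunits are encoded in the nucleus, and a few core subunits, with the ribosomal RNAs Rnr1 and Rnr2 that serve to translate them, are encoded in mitochondrial DNA. Alveolar type 2 cells and airway cells are rich in mitochondria, and some cytochrome oxidase subunits exist in separate forms for heart and skeletal muscle and for other tissues, with 1 form named for the lung. The mitochondrially encoded protein genes were not analysed here, so Rnr1 and Rnr2 are the only products of the mitochondrial genome set beside the members. The tissue was bulk lung, in which fewer cells of a type and less RNA per cell cannot be told apart.

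Library totals ran from 3420235 to 12359518 counts, and the lowest belonged to dust rat 27 of day 1 in the 10 mg/m3 study. As a check of the tissue, Sftpc, the surfactant protein C gene of alveolar type 2 cells, lay between 6613 and 13940 CPM (counts scaled to a common library size, here with TMM factors) in all 64 libraries. Air rats 51 and 53 of day 1 in the 30 mg/m3 study stood apart by the number of genes detected, 21889 and 22077, and the other libraries had at most 19731. Ucp1, the uncoupling protein of brown fat, was at most 0.165 CPM in any library. Rnr1 and Rnr2 together took 0.0961% to 4.43% of the counts of a library, and 13 of the 64 libraries were above 2%.

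Among the 87 members, 7 encode core subunits of complex I (NADH dehydrogenase), 31 its accessory subunits and 8 factors of its assembly. A further 8 encode complex III, 15 complex IV (cytochrome oxidase, including Ndufa4 and Ndufa4l2), 2 proteins related to it, 15 the ATP synthase and 1 its coupling factor B (Atp5s). The 3 symbols just outside the threshold were Cox7b2, Cox8c and Ndufa1, with 1, 2 and 20 counts over all 64 libraries. Just inside it were Atp5f1 with 102, Ndufb1-2 with 117 and Ndufs6 with 240 counts. A filter on low counts left 84 members tested in each study and 85 in the fit of all 64 libraries. Atp5f1 and Ndufb1-2 passed it in neither study, Ndufa1-2 only in the 30 mg/m3 study and Ndufs6 only in the 10 mg/m3 study. Cox7a1, Cox6b1 and Ndufa13 were not among the 92 symbols that the name rule matched, so they were not analysed here.

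CPM is not divided by transcript length, so a level can be compared across libraries but not between genes. Among the members with the most reads in each complex were Ndufs1 of the complex I core, with a mean of 91.8 CPM over the 64 libraries, and Ndufb9 and Ndufb8 of its accessory subunits, with 62.1 and 61.4 CPM. Among the assembly factors these were Atp5sl and Ndufaf3, with 27.3 and 24.7 CPM. In complex III they were Uqcrc2 and Uqcrh, with 131.0 and 110.2 CPM, and in complex IV Cox4i1 and Cox6a1, with 169.2 and 135.7 CPM. Cox7a2l, which takes part in joining complexes into supercomplexes, had 149.5 CPM. In the ATP synthase they were Atp5b and Atp5a1, the catalytic beta and the alpha subunit, with 683.7 and 365.3 CPM. Summed over the 87 members, a library held 3997 to 6739 CPM, or 0.398% to 0.658% of its counts. The members varied little between rats of a group. The median within-group SD of log2 CPM was 0.195 over the 85 members and 0.226 over all 16190 genes tested. Atp5a1 and Ndufv1 had the smallest spread, with SDs of 0.098 and 0.10, and Ndufa1-2 and Cox6a2 had the widest, with 2.15 and 1.25.

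Each dust group was set against the air group of its day and dose study to ask whether the inhaled dust changed these genes. No member passed an adjusted p of 0.05 (edgeR's quasi-likelihood test with Benjamini-Hochberg adjustment over all genes tested) in any of the dust comparisons. The count was 0 of 84 in each of the 6 comparisons by day, in the mean of the 3 days at each dose and in the tests of whether the dust effect depended on the day. At 10 mg/m3 the share of all genes called was 0.128% at day 1, 0% at days 7 and 27, 0.0319% in the mean of the days and 0% for dependence on the day. In the 30 mg/m3 study it was 0% at day 1, 0.0643% at day 7, 0% at day 27, 1.2% in the mean of the days and 0% for dependence on the day. Without air rats 51 and 53, 877 of 15775 genes were called at day 1 of that study and 1014 in the mean of the days, and the members' counts were 0 and 1. limma voom also called no member in any of them. DESeq2 called 1 member in 3 of them: Cox8a at 10 mg/m3 on day 1, Cox8b at 30 mg/m3 on day 7 and Atp5d in the mean of the days at 30 mg/m3. There DESeq2 called 474 of 15668, 55 of 15551 and 420 of 15551 genes in all.

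At an unadjusted p below 0.05 the members were not called more often than all genes in most of these comparisons. At 10 mg/m3 the members' counts were 7, 1, 1 and 1 of 84 at days 1, 7 and 27 and in the mean, where 18.9%, 3.96%, 2.36% and 9.27% of all genes were below it. In the 30 mg/m3 study they were 9, 8, 4 and 6 of 84, where 15%, 4.99%, 7.34% and 17.8% of all genes were below it. For dependence on the day they were 4 of 84 at 10 mg/m3 and 5 of 84 at 30 mg/m3, beside 7.28% and 4.42% of all genes. Day 7 at 30 mg/m3 was the comparison by day with the largest share of members beside that of all genes, and the cytochrome oxidase genes described further on were among the 8.

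The median log2 difference of the members was small at each day. In the 10 mg/m3 study it was -0.008 at day 1, -0.007 at day 7 and -0.074 at day 27, and the median of all genes was -0.009, -0.007 and -0.011. Of the 84 members, 39, 38 and 20 were above 0 at these days, where 48.4%, 48% and 46.9% of all genes were. With the higher dose the members' median was 0.080 at day 1, -0.040 at day 7 and -0.040 at day 27, and that of all genes was 0.024, -0.002 and 0.002. Here 63, 22 and 23 of the 84 members were above 0, beside 55.1%, 49.5% and 50.7% of all genes. The members thus leaned to the positive side at day 1 of 30 mg/m3 and to the negative side at the later days, and the lean itself was not tested. Lists of cell type markers also leaned at day 1 of 30 mg/m3, with no gene called: liver (median 1.98, 8 of 8 above 0), proliferation (0.38, 8 of 8), erythroid cells (0.34, 7 of 8) and alveolar type 1 cells (-0.20, 0 of 9). Their part in the members' lean was not tested. In the mean of the days 34 of 84 members were above 0 at 10 mg/m3 and 38 of 84 at 30 mg/m3, beside 47.2% and 52.3% of all genes, with medians of -0.023 and -0.011. With the Rnr1 plus Rnr2 share as a covariate the median at 30 mg/m3 was -0.18 at day 7 and -0.069 in the mean of the days, and with a score of cardiac markers, described further on, it was 0.091 at day 7.

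By complex, no group of members held a called gene in the comparisons of dust with air by day. On day 1 at 30 mg/m3 the median log2 difference was 0.019 in the complex I core (5 of 7 above 0), 0.078 in its accessory subunits (21 of 29), 0.11 in complex III (7 of 8), 0.091 in complex IV (10 of 15) and 0.12 in the ATP synthase (11 of 14). On day 7 at that dose these medians were -0.026 (0 of 7 above 0), -0.039 (7 of 29), -0.11 (1 of 8), -0.047 (6 of 15) and -0.053 (2 of 14). The complex I assembly factors, which help build the complex and are not part of it, had medians of 0.059 and 0.038 at these days. On day 27 at 10 mg/m3 the ATP synthase had a median of -0.084 and complex IV one of -0.15, with no gene above 0 in either (0 of 14 and 0 of 15), while the assembly factors had 0.085 (7 of 8 above 0).

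**Figure D1:**
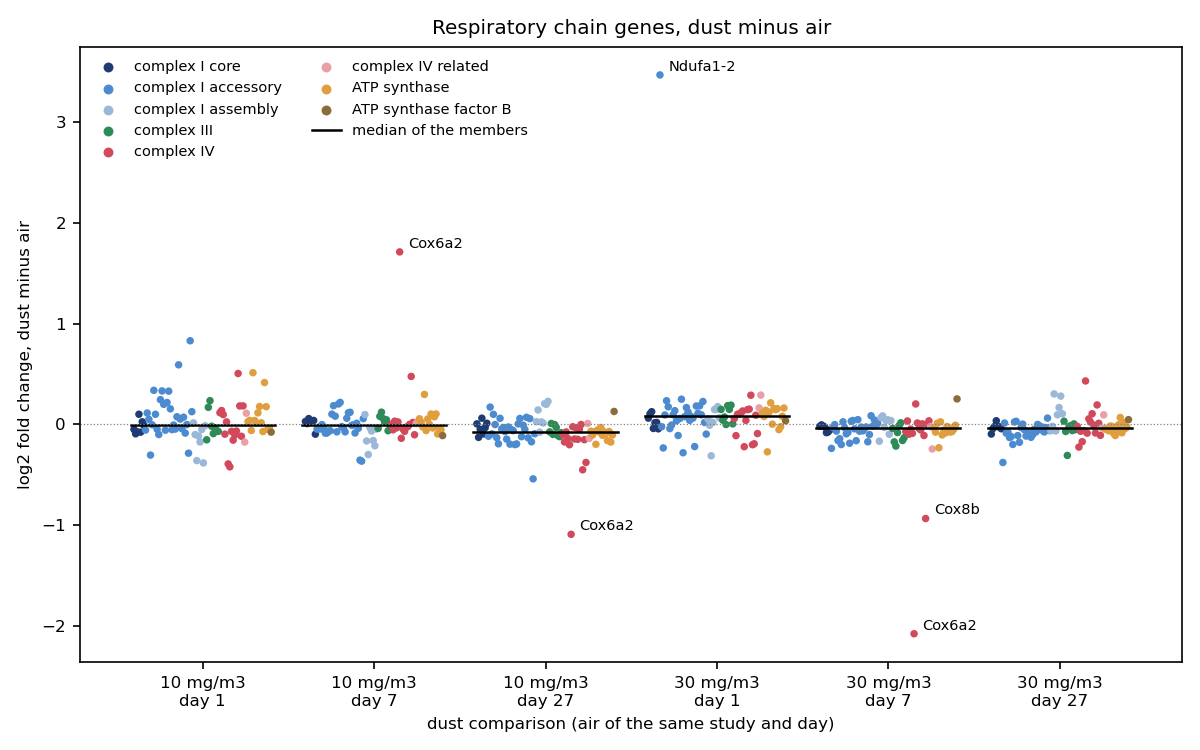
Log2 fold change of dust against air for each member tested (points, coloured by complex; n = 84 in each comparison) at the 6 combinations of dose and day, with the median of the members as a black line. The medians lie between -0.074 and 0.080, and the points farthest from 0 belong to Ndufa1-2, Cox6a2 and Cox8b.

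The smallest adjusted p at 10 mg/m3 on day 1 belonged to Cox8a, the form of cytochrome oxidase subunit VIII found in most tissues. In air its levels were 22.6, 55.3, 56.3, 56.6 and 65.95 CPM, and in dust they were 60.9, 64.1, 78.8, 79.9 and 81.6 CPM. The groups overlapped, and air rat 17 stood far below the other air rats. The log2 difference was 0.51 ± 0.15 (SE), with an adjusted p of 0.105. For Ndufb7, an accessory subunit of complex I, it was 0.59 ± 0.19 (adjusted p = 0.112), and for Atp5d, the delta subunit of the ATP synthase, 0.51 ± 0.18 (adjusted p = 0.133). On the negative side, Ndufs5, another accessory subunit of complex I, had -0.29 (adjusted p = 0.206).

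These values rested on single air rats. Air rat 21 held 3.01% of its counts in Rnr1 and Rnr2, and the other 4 air rats held 0.0961% to 0.314%. It also had the highest level of its group in each of Atp5d, Atp5j, Cox8a, Ndufa9, Ndufb7 and Uqcrb. These genes were picked because they passed once it was left out, so its high level in them is no separate observation. Without rat 21, these 6 members of 84 were higher in dust and passed the test, and 7.34% of all genes were called. The log2 differences were 0.69 for Atp5d (adjusted p = 0.0175), 0.62 for Atp5j (0.00505), 0.61 for Cox8a (0.0195), 0.46 for Ndufa9 (0.0317), 0.78 for Ndufb7 (0.0117) and 0.58 for Uqcrb (0.00796). Air rat 17 had the lowest level of its group in each of these 6 genes, and without it the values of Cox8a, Ndufb7 and Atp5d were 0.33, 0.39 and 0.35 and no member passed. Without rat 21 the air rats also lay below all dust rats in their Rnr1 plus Rnr2 share, 0.493% to 2.62% in dust, and the part of that difference in the 6 calls was not tested.

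At the other days of the 10 mg/m3 study the most distant values were those of Cox6a2, with log2 differences of 1.71 ± 1.02 at day 7 and -1.09 at day 27, which did not pass. The cardiac markers, described further on, had medians of 1.57 (16 of 17 above 0) and -1.16 (0 of 17) at these days, and their part was not tested. Ndufs5 was below air at each day and had the smallest p in the mean of the days (log2 difference -0.27 ± 0.074, adjusted p = 0.305 in edgeR). In air its levels lay between 16.5 and 29.4 CPM over the 3 days, and in dust between 12.9 and 22.8 CPM, so the groups overlapped. The smallest p at day 7 also belonged to Ndufs5 (-0.35, adjusted p = 0.996), and that at day 27 to Cox6a1 (-0.20, adjusted p = 1.0 in edgeR), the form of subunit VIa found in most tissues.

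On day 1 after 30 mg/m3, Atp5d had the smallest adjusted p of the members (log2 difference -0.27, adjusted p = 0.191). Its levels were 39.1 to 45.9 CPM in air, with a median of 42.1, and 25.4 to 39.1 CPM in dust, with a median of 35.6. The highest dust rat lay at the level of the lowest air rat. Ndufb10, an accessory subunit of complex I, had -0.28 (adjusted p = 0.235). Cox7c, a small subunit of cytochrome oxidase, had 0.29 (0.236), and Ndufs4, an accessory subunit of complex I whose loss causes a mitochondrial encephalopathy, had 0.23. At day 27, Uqcrb, a small subunit of complex III, had the smallest adjusted p, with -0.31 (0.424).

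Cytochrome oxidase subunits VIa and VIII have a muscle form, Cox6a2 and Cox8b, and a form for other tissues, Cox6a1 and Cox8a. At 30 mg/m3 on day 7 the levels of both muscle forms were lower in dust, without passing the test. Cox6a2 was at 4.21, 5.67, 5.70, 10.1, 11.8 and 17.04 CPM in the 6 air rats (9.09 ± 4.87, SD) and at 0.893 to 3.45 CPM in the 6 dust rats, with a median of 2.02 (2.16 ± 0.94, SD). The groups did not overlap. The log2 difference was -2.08 ± 0.57 (SE), with an adjusted p of 0.191. Cox8b was at 5.16 to 11.8 CPM in air, with a median of 9.47 (8.62 ± 2.73, SD), and at 3.01 to 6.61 CPM in dust, with a median of 4.29 (4.53 ± 1.26, SD). Dust rats 74 and 77 reached into the range of the air rats. The log2 difference was -0.93 ± 0.21 (SE), with an adjusted p of 0.0694. It passed in DESeq2 (adjusted p = 0.00801), and without air rat 65 (-1.03, adjusted p = 0.0235) or air rat 66 (-1.05, adjusted p = 0.0209). Cox6a2 passed when only the 2 compared groups entered the fit (adjusted p = 0.0391).

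The forms for other tissues had smaller differences of the same sign in the same rats, which did not pass. Cox6a1 was at 132 to 170 CPM in air and 125 to 153 CPM in dust, and the log2 difference was -0.09 ± 0.11 (SE, adjusted p = 0.961 in edgeR). Cox8a was at 57.6 CPM in the lowest air rat and 64.7 to 71.5 CPM in the other 5, and at 57.6 to 64.6 CPM in dust. All air rats but that one lay above every dust rat. The log2 difference of Cox8a was -0.11 ± 0.093 (SE, adjusted p = 0.959 in edgeR).

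Markers of heart muscle moved with this comparison. All 21 genes of the cardiac marker list were in the tables, and their summed level at 30 mg/m3 on day 7 was 630 to 2226 CPM in air, with a median of 1194, and 180 to 479 CPM in dust, with a median of 314. No marker was at 0 throughout either group. Myh6, the alpha heavy chain of cardiac myosin, was at 120 to 405 CPM in air and 9.02 to 74.5 CPM in dust. Of the 19 cardiac markers tested, all had a negative log2 difference, with a median of -2.34, and Ryr2 (-2.50, adjusted p = 0.0359) and Ttn (-2.09, adjusted p = 0.0437) passed. The 11 skeletal muscle markers summed to 11.2 to 67.3 CPM in air and 7.77 to 10.4 CPM in dust, and the 8 brown fat markers to 47.6 to 59.2 and 46.1 to 53.3 CPM. Other marker lists were lower in dust as well, with no gene called. The median log2 difference was -2.81 for liver (0 of 8 above 0), -1.20 for erythroid cells (0 of 8) and -0.99 for secretory airway cells (1 of 6), and the part of these lists in the values of Cox6a2 and Cox8b was not tested. In the other groups the summed cardiac markers lay between 91.4 and 2090 CPM.

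With the cardiac score, the mean log2 CPM of the 21 markers, as a covariate, the log2 difference of Cox6a2 was 0.28 (adjusted p = 0.662) and that of Cox8b was -0.31 (adjusted p = 0.463). In the fit of all 64 libraries with a term for each group, the score itself was followed by Cox6a2, which rose by 1.09 ± 0.053 (SE) on the log2 scale per unit of the score (adjusted p = 7.36e-25), and by Cox8b, which rose by 0.27 ± 0.044 (adjusted p = 6.88e-06). These were the only members past the threshold in that fit, 2 of 85, where 4.77% of all genes were called and 4.07% were called with a positive slope. At an unadjusted p below 0.05 there were 8 of 85 members, beside 12.3% of all genes, and 68 of 85 slopes were above 0, beside 48.4%. The score was followed by markers of other cells too: 6 of 6 secretory airway genes (median slope 0.54) and 9 of 10 ciliated cell genes (0.20) rose with it, and 5 of 6 mesothelial genes (-0.42) fell. Their part in the slopes of the members was not tested. With the 30 mg/m3 study alone 4 members passed, beside 1.87% of all genes. Without air rat 37 of day 7 in the 10 mg/m3 study 4 members passed as well, and the share of all genes in that fit is not given.

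**Figure D2:**
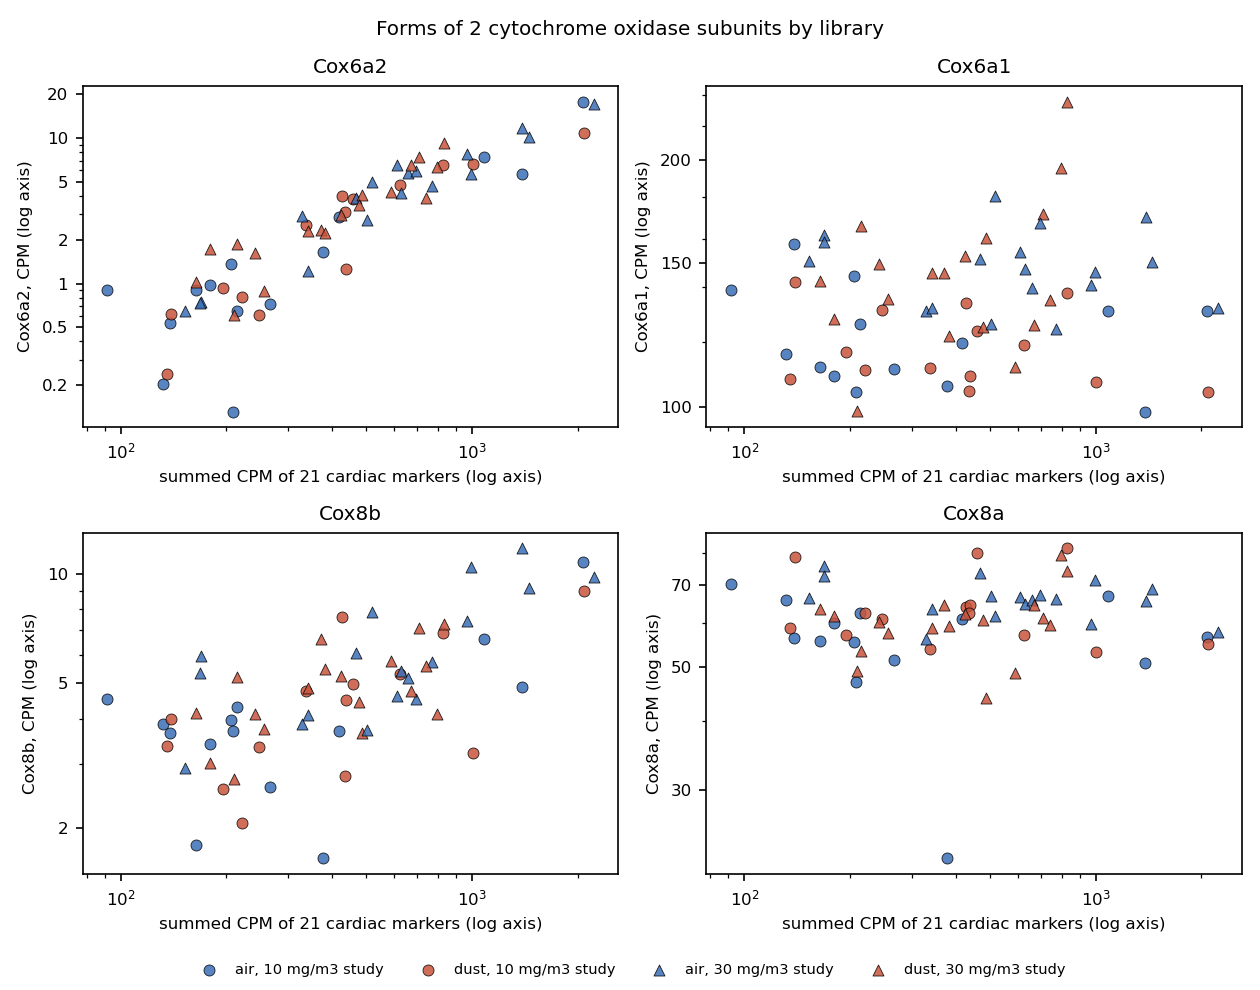
Levels in CPM of the muscle forms Cox6a2 and Cox8b and of the forms for other tissues, Cox6a1 and Cox8a, in each of the 64 libraries (points, coloured by study and exposure) against the summed CPM of 21 cardiac markers, all axes logarithmic. Cox6a2 climbs along the axis of cardiac markers in both studies, Cox8b less steeply, and Cox6a1 and Cox8a stay nearly level.

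The sequence just before the start of these genes is shown because the muscle forms followed the cardiac score and the other forms of the same subunits did not pass that test. RefSeq held a promoter window for 70 of the 87 members (81 were found there, 17 of them by an older symbol), in build GRCr8, which is not the build of the counts. The 120 bases before the start follow, 5′ to 3′ on the gene's strand, at chr1:192219717-192219836 (minus strand) for Cox6a2, chr1:205408274-205408393 (minus) for Cox8b, chr1:213833624-213833743 (minus) for Cox8a and chr8:118468103-118468222 (plus) for Uqcrc1, a core protein of complex III shown as an example with the NRF1 motif. Capitals mark letters that matched a motif: the E-box CAGCTG, the MEF2 motif and the TATA box TATAAA in the muscle forms, the ETS motif CCGGAAG in Cox8a and the NRF1 motif (GCGCA and GCGC with any 1 base between them) in Uqcrc1, the last 2 read on the other strand.

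Cox6a2: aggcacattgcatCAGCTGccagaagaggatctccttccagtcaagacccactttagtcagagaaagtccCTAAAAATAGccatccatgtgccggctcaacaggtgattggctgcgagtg

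Cox8b: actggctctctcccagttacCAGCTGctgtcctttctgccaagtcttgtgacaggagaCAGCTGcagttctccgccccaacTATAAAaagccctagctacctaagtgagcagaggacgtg

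Cox8a: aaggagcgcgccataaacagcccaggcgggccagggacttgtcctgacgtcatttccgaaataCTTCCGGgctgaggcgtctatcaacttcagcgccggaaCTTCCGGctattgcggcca

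Uqcrc1: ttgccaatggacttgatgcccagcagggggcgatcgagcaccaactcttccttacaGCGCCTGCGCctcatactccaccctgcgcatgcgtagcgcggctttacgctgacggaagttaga

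Cox6a2 carried an E-box beginning 107 bases and the MEF2 motif beginning 50 bases before the start. Cox8b carried E-boxes beginning 100 and 62 bases before it and a TATA box beginning 39 bases before it. Each motif was searched on both strands in the 250 bases before the start. Cox6a2 was the only member with the MEF2 motif, which 0.523% of all 33469 windows held. The E-box was held by 8 of the 70 members (11.4%) and by 12.0% of all windows, and TATAAA by 5 members (7.14%) and 12.9% of all windows. The ETS motif was held by 16 members (22.9%), Cox8a, Atp5a1 and Ndufs1 among them, and by 7.27% of all windows. The NRF1 motif was held by 11 members (15.7%), Uqcrc1 and Ndufs5 among them, and by 3.75% of all windows. The motif AAGATGGCG of YY1 was held by 1 member, Atp5j (1.43%), and 0.693% of all windows. A match describes letters in a window and says nothing of binding.

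Ndufa1-2, whose symbol resembles that of the accessory complex I subunit Ndufa1, was present in some rats and nearly absent in others. In the 10 mg/m3 study it lay between 0 and 0.323 CPM in all 28 libraries and was at 0 in 13 of them. In the 30 mg/m3 study 21 of 36 libraries were below 1 CPM, 12 were at 10 to 30 CPM and 3 were above 30 CPM, and none lay between 1 and 10 CPM. Both kinds of library occurred in each of the 6 groups. At day 1 of the 30 mg/m3 study, air rat 53 had 16.1 CPM and the other 5 air rats at most 0.425 CPM, and the dust rats had 0.310, 0.417, 14.4, 15.5, 66.01 and 68.0 CPM. The log2 difference was 3.47 ± 1.55 (SE), with an adjusted p of 0.301, and without air rats 51 and 53 it was 7.05, with an adjusted p of 0.0771. At day 7 it was high in 2 of 6 air and 2 of 6 dust rats, and at day 27 in 2 of 6 air and 4 of 6 dust rats. Whether this symbol shares reads with another copy of Ndufa1 was not tested.

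**Figure D3:**
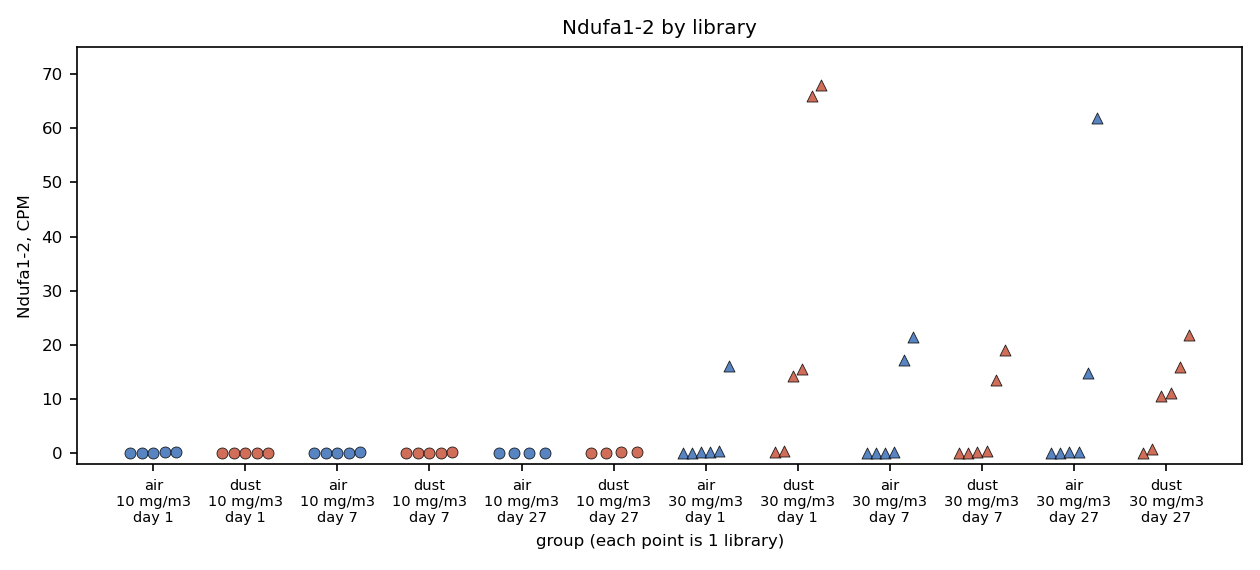
Level of Ndufa1-2 in CPM in each library (points) by group, for both studies. In the 10 mg/m3 study the libraries lie at or below 0.323 CPM, and in the 30 mg/m3 study they fall below 1 CPM or above 10 CPM in air and dust alike.

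Other members with few reads also differed between single libraries or studies. Ndufs6 was at 0 to 2.0 CPM in the 10 mg/m3 study and at 0 to 0.245 CPM in the 30 mg/m3 study, where 23 of 36 libraries held no read of it. RefSeq lists this symbol also as an older name of the pseudogene Ndufs6-ps1, so the locus counted is uncertain. Ndufb1-2 was at 0 to 1.21 CPM and 0 to 0.454 CPM. Atp5f1 was at 5.76 CPM in dust rat 27 of day 1 at 10 mg/m3 and at most 0.744 CPM in the other 63 libraries. Each study had its own table, so levels between the studies are given side by side only.

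Across the days, Atp5d was the member nearest to the threshold in the mean dust effect at 30 mg/m3. The log2 difference was -0.17 ± 0.048 (SE), with an adjusted p of 0.0640. At day 7 its levels were 41.9 to 51.6 CPM in air, with a median of 47.1, and 36.1 to 43.9 CPM in dust, with a median of 40.1, and at day 27 the medians were 46.5 and 43.4 CPM. The groups overlapped at days 7 and 27. It passed with the cardiac score as a covariate (-0.20, adjusted p = 0.0452) and without air rats 51 and 53 together (-0.18, adjusted p = 0.0326). It also passed without any 1 of air rats 53, 69 and 84 or dust rats 58, 73 and 91, with adjusted p between 0.0314 and 0.0464. With the Rnr1 plus Rnr2 share as a covariate it was -0.12 (adjusted p = 0.391). Ndufa3 and Uqcrb had values of -0.15 each (adjusted p = 0.128 and 0.160).

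The dust effect at 30 mg/m3 minus that at 10 mg/m3, in the mean of the days, sets the dust effects of both studies against each other. Each dose had its own study, so a difference of dose cannot be told apart from one of study. No member of 85 passed, where 2.09% of all genes were called, and 8 members had an unadjusted p below 0.05, beside 22.4% of all genes. limma voom called none of the members and DESeq2 called Atp5d, with 823 of 16190 genes called by DESeq2 in all. Of the members, 51 were above 0, beside 53.6% of all genes, and their median was 0.020, beside 0.019 for all genes. The smallest adjusted p was that of Atp5d, whose log2 difference between the doses was -0.38 ± 0.11 (SE), with an adjusted p of 0.0536, and with the Rnr1 plus Rnr2 share as a covariate -0.14 (adjusted p = 0.656). Without air rat 21 of day 1 at 10 mg/m3, 4 members passed: Atp5d (-0.44), Cox8a (-0.34), Ndufa9 (-0.30) and Uqcrb (-0.35), and 6.47% of all genes were then called.

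Air rats of later days were compared with those of day 1 to give the change over time without dust. Within each study both comparisons share the air rats of day 1. In the 10 mg/m3 study, 6 of 84 members fell from day 1 to day 7 and none rose, where 5.9% of all genes were called and 2.37% were called as falling. They were Ndufs8 (-0.40 ± 0.10 SE, adjusted p = 0.0196), Ndufv1 (-0.22) and Ndufa7 (-0.35) of complex I, its accessory subunit Ndufb9 (-0.30), Cox7a2l (-0.29), and Atp5a1 (-0.29 ± 0.067 SE, adjusted p = 0.0114). Atp5a1 was at 339, 341, 401, 414 and 425 CPM at day 1 and at 284, 299, 303, 330 and 331 CPM at day 7, and the groups did not overlap. At an unadjusted p below 0.05 there were 36 members, beside 22.9% of all genes. Of the 84 members 17 were above 0, beside 50.3%, and their median was -0.18, beside 0.002 for all genes.

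That count depended on single libraries. It was 24 without air rat 17 (all fell), 20 without air rat 21 (4 rose, 16 fell) and 15 without dust rat 27 (1 rose, 14 fell), which enters the fit through the spread, and 13.4%, 8.91% and 9.49% of all genes were then called. The 4 that rose without rat 21 were Atp5j (0.63), Ndufaf2 (1.11), Ndufb7 (0.64) and Uqcrb (0.80), and Atp5j also rose without rat 27 (0.42). The count was 1 without any 1 of air rats 18, 19 and 34, 2 without any 1 of air rats 20, 37 and 39, and 3 without any 1 of air rat 5 or dust rats 13, 14, 29, 30, 43, 44, 45, 47 and 48. For these last fits the share of all genes called is not given, so their counts cannot be weighed against it.

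From day 1 to day 27 at 10 mg/m3, 2 of 84 members rose and none fell, where 2.97% of all genes were called and 2.08% were called as rising. Uqcrb rose by 0.79 ± 0.19 (SE, adjusted p = 0.0236). It was at 10.2, 11.7, 11.9, 17.2 and 29.4 CPM at day 1 and at 23.0, 27.0, 30.2 and 31.8 CPM at day 27, and rat 21 was the only rat of day 1 within the range of day 27. Atp5j, coupling factor 6 of the ATP synthase, rose by 0.75 ± 0.16 (SE, adjusted p = 0.0140). It was at 21.9, 33.8, 34.4, 36.4 and 55.9 CPM at day 1 and at 54.4, 60.3, 65.3 and 65.9 CPM at day 27, with rat 21 again the highest of day 1. At an unadjusted p below 0.05 there were 24 members, beside 18.8% of all genes, and 24 of 84 were above 0, beside 47.4%, with a median of -0.16. The count was 16 without air rat 21 (7 rose, 9 fell, Uqcr10 and Atp5a1 among the latter) and 5 without dust rat 27 (2 rose, 3 fell), where 9.39% and 5.79% of all genes were called. It was 1 without any 1 of air rats 1, 3, 5 and 19, and 0 without air rat 18. The share of all genes called is not given for these fits.

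In the 30 mg/m3 study no member of 84 passed from day 1 to day 7, where 0.116% of all genes were called. There, 10 members had an unadjusted p below 0.05, beside 12% of all genes, and limma voom and DESeq2 called none. Of the members 55 were above 0, beside 52.6%, with a median of 0.058. From day 1 to day 27, 9 members fell and 1 rose, where 12.9% of all genes were called, 7.36% as falling and 5.55% as rising. At an unadjusted p below 0.05 there were 31 members, beside 30.1% of all genes, and 13 of 84 were above 0, beside 50.1%, with a median of -0.16. Markers of proliferation moved in the same comparison, with 6 of 8 fallen (median -0.75, 0 of 8 above 0). Of the pericyte and smooth muscle markers 4 of 11 rose and 2 fell (median 0.23), and of the mesothelial markers 1 of 6 fell (median -0.52, 0 of 6 above 0). Their part in the members' changes was not tested.

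Cox4i2, the form of subunit IV named for the lung, was at 35.3 to 41.2 CPM at day 1 of the 30 mg/m3 study, with a median of 38.8, and at 25.1 to 31.3 CPM at day 27, with a median of 28.1. The groups did not overlap, and the log2 change was -0.48 ± 0.095 (SE), with an adjusted p of 0.0018. Ndufa4, a cytochrome oxidase subunit once counted to complex I, was at 84.9 to 119 CPM at day 1, with a median of 95.7, and at 64.4 to 80.0 CPM at day 27, with a median of 72.5. It fell by 0.45 ± 0.093 (SE, adjusted p = 0.0022), again without overlap. The other members that fell were Cox6b2, a form of subunit VIb known from testis (-0.67, adjusted p = 0.0337), Ndufs5 (-0.50, 0.0188), Cox6c (-0.45, 0.0054), Ndufa5 (-0.41, 0.0072), Ndufaf7 (-0.37, 0.0369), Ndufc2 (-0.29, 0.0498) and Ndufv2 (-0.29, 0.0292). Uqcrb rose by 0.39 ± 0.097 (SE, adjusted p = 0.0099), from 16.1 to 24.4 CPM at day 1, with a median of 18.4, to 20.5 to 29.5 CPM at day 27, with a median of 25.6. The count was 5 without air rat 53, 6 without air rat 85 and 4 without air rats 51 and 53 together, when no member rose, and 7.82%, 8.31% and 6.67% of all genes were then called.

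The Rnr1 plus Rnr2 share moved with these comparisons. In the air rats of the 10 mg/m3 study it was 0.0961% to 3.01% at day 1, 0.448% to 4.43% at day 7 and 3.02% to 4.00% at day 27, and in those of the 30 mg/m3 study 0.128% to 0.903% at day 1, 0.459% to 0.885% at day 7 and 0.456% to 1.62% at day 27. With the share as a covariate, the 6, 2 and 10 members called in the 3 comparisons kept their direction and none of them passed. The share of all genes called went from 5.9% to 5.69%, from 2.97% to 0.0319% and from 12.9% to 1.19%. Among the members, Atp5a1 was then at -0.22 (adjusted p = 0.0759) in the first comparison, Uqcrb at 0.06 and Atp5j at 0.41 in the second, and Cox4i2 at -0.39 (0.0652) and Cox6b2 at -0.86 (0.0743) in the third. The median of the members at day 27 against day 1 was then 0.066 at 10 mg/m3 and -0.038 at 30 mg/m3. With it Atp5d was lower at day 7 than at day 1 of the 10 mg/m3 study (-0.46, adjusted p = 0.0458), and Atp5g1 (0.39, adjusted p = 0.0333) and Cox7c (0.44, adjusted p = 0.0149) were higher at day 7 than at day 1 of the 30 mg/m3 study. These 3 were named after their values were seen. At 10 mg/m3 the shares of the air rats at days 1 and 27 did not overlap, so day and share can hardly be told apart there. A call can also be lost without a smaller change, as Cox6b2 went from -0.67 to -0.86 when the share was added.

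The share of dust rats was compared with that of air rats by an exact two-sided permutation test, with Benjamini-Hochberg adjustment over the 6 comparisons. At 30 mg/m3 on day 7 it was lower in dust, 0.256% ± 0.14 against 0.678% ± 0.16 in air (SD, n = 6 each, exact p = 0.0022, adjusted p = 0.0130). No dust rat reached the lowest air rat, and in the same comparison the cardiac markers were lower in dust and 2 of them passed. In the other comparisons the adjusted p was at least 0.457. At 10 mg/m3 the means in air and dust were 0.734% and 1.05% at day 1, 1.61% and 2.09% at day 7, then 3.33% and 2.91% at day 27, while at 30 mg/m3 they were 0.459% and 0.270% at day 1 and 1.14% and 1.00% at day 27. At 10 mg/m3 on day 1, dust minus air was 0.314 percentage points, and it was 0.884 without air rat 21 and -0.077 without dust rat 27.

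Within groups, the members were then followed against that share in 1 fit of all 64 libraries with a term for each of the 12 groups. A slope is the log2 change of a gene per doubling of the share. Of 85 members, 40 fell and 8 rose with the share, where 32.4% of all genes were called, 15.8% as falling and 16.6% as rising. At an unadjusted p below 0.05 there were 52 members, beside 41.3% of all genes. The slope was above 0 in 16 of 85 members, beside 48.3% of all genes, and its median was -0.062, beside -0.004 for all genes. Members that fell were found in each complex: 5 of 7 core subunits of complex I, 12 of 30 accessory subunits, 4 of 8 assembly factors, 5 of 8 genes of complex III, 4 of 15 of complex IV and 9 of 14 of the ATP synthase.

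The steepest fall belonged to Uqcr10, a small subunit of complex III, with a slope of -0.18 ± 0.027 (SE, adjusted p = 2.08e-06). It was followed by Atp5g1 (-0.15, adjusted p = 2.68e-05), which encodes subunit c of the ATP synthase's rotor ring, Cox7c (-0.14, 5.40e-05), Ndufa4 (-0.13, 6.78e-05) and Ndufa2 (-0.13, 5.14e-06). The steepest rise belonged to Ndufaf2, an assembly factor of complex I, with 0.24 ± 0.048 (SE, adjusted p = 0.000102). Uqcrb rose by 0.19 ± 0.023 (adjusted p = 1.61e-08), Atp5d by 0.15 ± 0.025 (4.48e-06), Cox6b2 by 0.15 (0.0348), Ndufb7 by 0.13 (0.0184), Atp5j by 0.12, Ndufb10 by 0.11 and Ndufa9 by 0.09. Uqcrb and Uqcr10, subunits of the same complex, had slopes of opposite sign. RefSeq lists both symbols also as older names of pseudogenes, Uqcrb-ps1 and Uqcr10-ps1, so which locus the counts belong to is uncertain. In the air rats of day 1 at 10 mg/m3, rat 21 with the highest share had the highest Uqcrb (29.4 CPM) and the lowest Uqcr10 (18.97 CPM) of its group.

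Group medians of this pair of genes ran the same way in the 10 mg/m3 study. Uqcr10 was at 18.97 to 29.6 CPM in air at day 1, with a median of 26.5, and at 14.6 to 19.7 CPM in air at day 27, with a median of 18.0. In dust it was at 11.5 to 27.8 CPM at day 1, with a median of 24.6, and at 15.1 to 18.1 CPM at day 27, with a median of 16.6. Uqcrb in dust was at 18.1 to 22.4 CPM at day 1 and at 24.1 to 27.6 CPM at day 27, without overlap. The low value of Uqcr10 in dust at day 1 belonged to rat 27, whose share was the highest of that group. In the air rats of the 30 mg/m3 study Uqcr10 did not follow the order of the share, with medians of 23.6, 27.95 and 23.3 CPM at days 1, 7 and 27, where the median share was 0.435%, 0.653% and 1.23%. In air at 10 mg/m3, the log2 change of Uqcr10 against day 1 was -0.52 at day 7 and -0.54 at day 27. Neither passed edgeR's test (adjusted p = 0.0504 and 0.0769), and in air at 30 mg/m3 Uqcr10 was not called either. The levels of dust rats over time are a description and were not tested.

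**Figure D4:**
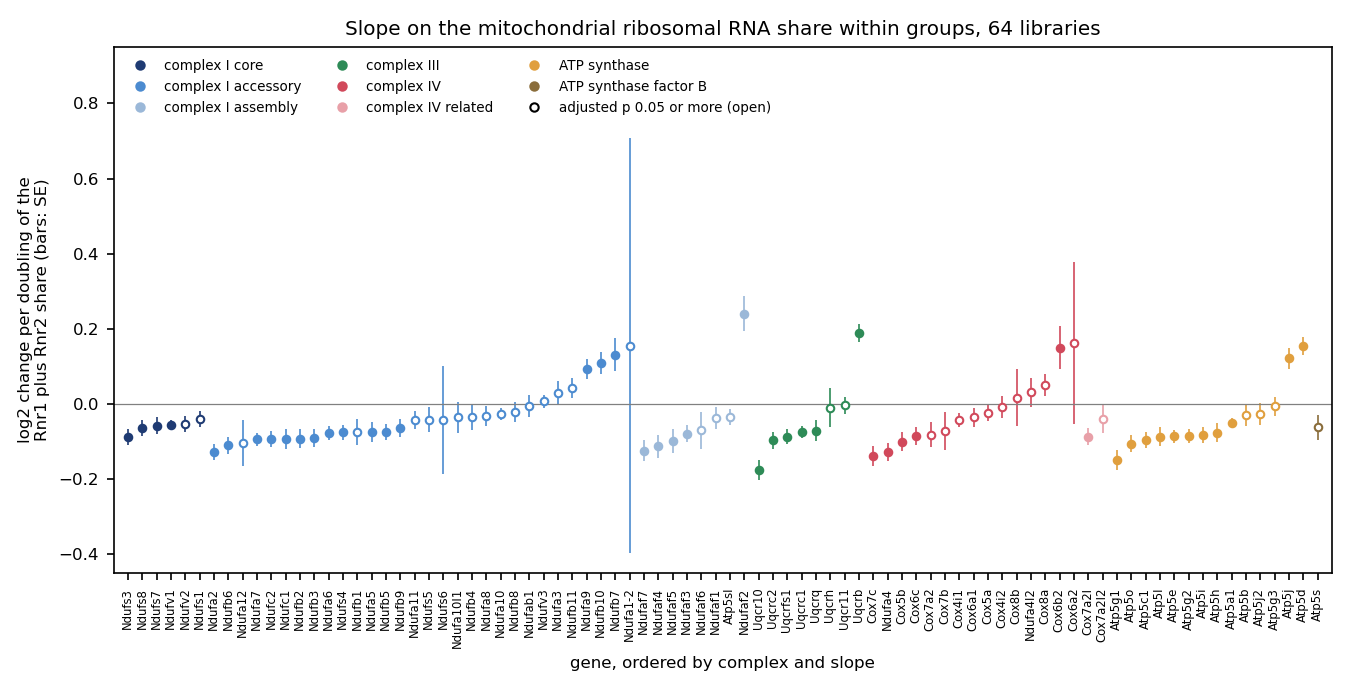
Slope of 84 of the 85 members tested on the Rnr1 plus Rnr2 share (log2 change per doubling, with SE), ordered by complex; filled points passed an adjusted p of 0.05 and open points did not. Most filled points lie below 0, and the 8 above it include Ndufaf2, Uqcrb and Atp5d.

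**Figure D5:**
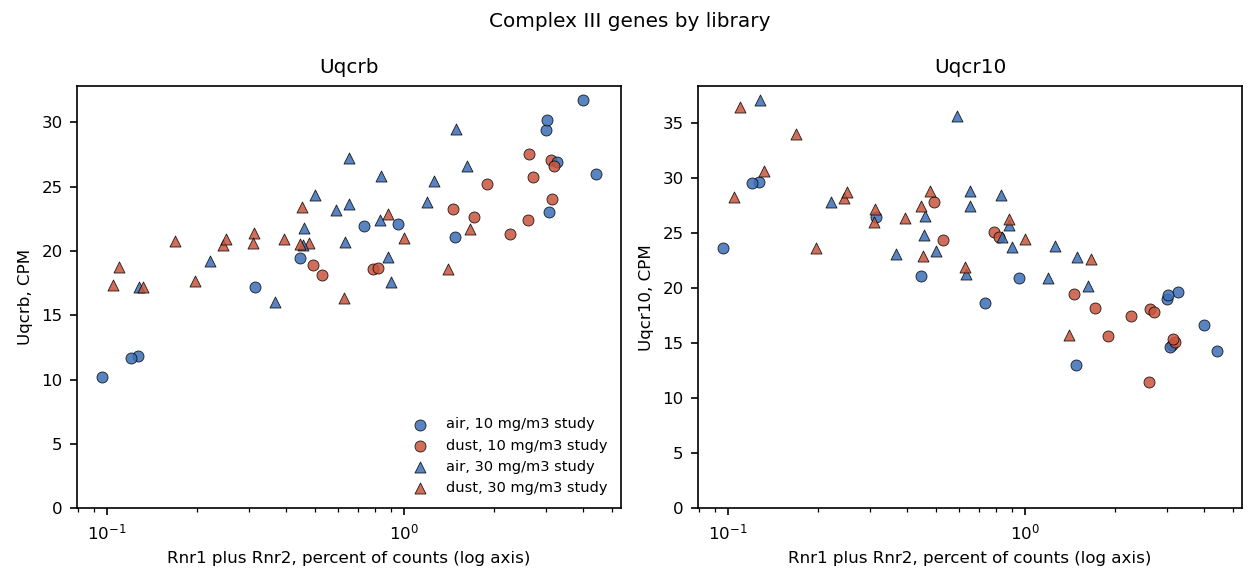
Levels of the complex III genes Uqcrb and Uqcr10 in CPM by library (points, coloured by study and exposure) against the Rnr1 plus Rnr2 share in percent, on a log axis. Uqcrb is higher and Uqcr10 lower in libraries with a larger share.

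All 48 of these members kept their direction in each study alone. They were chosen by the fit of all 64 libraries, which holds both studies, so the shared direction is no independent check. Of the 48, 24 still passed with the 10 mg/m3 study alone and 35 with the 30 mg/m3 study alone. With the 10 mg/m3 study alone 24 members passed (4 rose, 20 fell) and with the 30 mg/m3 study alone 39 (3 rose, 36 fell). Without the 13 libraries above 2%, an alternative chosen after the data were seen, 26 passed (5 rose, 21 fell). Of all genes, 17.1%, 15% and 15.4% passed in these 3 fits. Ndufaf2 and Uqcrb passed in each study alone, and so did Uqcr10, Atp5g1, Cox7c, Ndufa2 and Ndufa4, while Atp5d passed only at 10 mg/m3 (0.21, adjusted p = 0.000186, against 0.06, adjusted p = 0.192, at 30 mg/m3), a difference that was not tested. Rnr1 and Rnr2 are ribosomal RNAs and the libraries were depleted of ribosomal RNA, and the part of that step in the share was not tested.

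Other gene lists of the mitochondrion and of protein synthesis were set beside the members in the same fit. The first list was drawn from the Sdh genes of complex II, the Sdhaf genes of its assembly, Cyc1, Cycs and the Etf genes. Of its genes tested, 6 of 10 fell and none rose with the share, with a median slope of -0.07. Of the mitochondrial ribosomal protein genes 40 of 70 fell and 6 rose (median -0.07), of the cytosolic ribosomal protein genes 47 of 82 fell and 4 rose (median -0.09), and of the genes for mitochondrial protein import 9 of 18 fell and 2 rose (median -0.07). Genes of the tricarboxylic acid cycle (7 of 17 fell, 4 rose, median -0.02), fatty acid oxidation (5 of 16 fell, 1 rose, median -0.04) and regulators of mitochondrial biogenesis (2 of 17 fell, 3 rose, median -0.01) lay nearer to the median of all genes. Sdhd, the membrane anchor of complex II, had a slope of -0.11, and Ppargc1a, a regulator of biogenesis, had -0.01, which did not pass.

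From day 1 to day 27 in air at 30 mg/m3, where 12.9% of all genes were called, 7 of 70 mitochondrial ribosomal protein genes and 4 of 18 import genes fell, and 1 import gene rose, with medians of -0.15 for both lists. Of the tricarboxylic acid cycle genes 3 of 17 fell and 2 rose (median -0.11), and of the list of Sdh, Sdhaf, Cyc1, Cycs and Etf genes 2 of 10 fell (median -0.17). In the comparisons of dust with air by day, no gene of these lists passed. At 30 mg/m3 on day 1, where the members' median was 0.080, the cytosolic ribosomal protein genes had a median of 0.12 with 68 of 79 above 0, and the mitochondrial ribosomal protein genes 0.06 with 50 of 70 above 0.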

How the data were processed

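Lung RNA of 64 rats in 12 groups was analysed. The authors deposited raw counts by gene symbol in 1 table for each dose study, whole numbers without normalisation, as the values and file headers show. The submitters' processing notes name HTSeq 0.6.1, SAMtools 1.8, HISAT2 2.1.0, Trimmomatic 0.35, bcl2fastq 2.19 and genome build Rnor_6.0. Sources used here give neither the annotation nor the strand setting, so genes that overlap or share reads with a copy are uncertain.

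Tests on the deposited counts used edgeR 4.0.16 in R 4.3.3 (TMM scaling, filterByExpr with a minimum count of 10 and a minimum total count of 15, quasi-likelihood test with robust estimation, Benjamini-Hochberg adjustment over all genes tested, threshold 0.05). The 6 groups of a study entered 1 fit, with 15668 genes tested at 10 mg/m3 and 15551 at 30 mg/m3. The difference between doses and the slopes came from fits of all 64 libraries with 16190 genes. Fold changes are log2 with their SE, and levels are CPM with TMM factors. The cardiac score is the mean log2 CPM, with a prior count of 2, of 21 markers. Library totals limit precision most for genes with few reads. DESeq2 1.42.0 and limma 3.58.1 (voom) were alternatives, beside other scalings, no filter, covariates and leaving out each library. Permutation tests used scipy 1.17.1. The procedure was tested on simulated data with known changes. Of genes simulated with a log2 difference of 0.5 at day 7, 30% passed at 10 mg/m3 and 52% at 30 mg/m3. With a difference of 1 these were 73% and 83%. Of slopes of 0.1 and 0.2 on the share, 34% and 62% passed. A count of 0 members called can thus miss changes of these sizes and smaller ones.

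The members and lists were chosen with earlier results of these data known. Genes are named if they are forms of a subunit that differ by tissue, passed the threshold in a comparison, had the 3 smallest p in a direction, led their complex in mean CPM, lay next to the count threshold or had the 5 largest slopes in a direction. The values of 1 member are not reported here. Promoter sequences and motif searches came from RefSeq's GRCr8 table.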

Additional observations from a re-analysis of the deposited data

Results flagged for a closer look

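Within each group, the highest or lowest value was compared with its nearest neighbour for Cox4i1, Cox4i2, Cox6a1, Cox6a2, Cox8a, Cox8b, Ndufa1-2, Ndufs6 and Atp5f1. The Rnr1 plus Rnr2 share and the members' summed level were checked in the same way. Other members were not checked, and a gene was skipped in a group where its highest level was below 1 CPM. A gap above Dixon's 95% critical value marked 15 of the 107 sets of values. The rate of about 1 in 20 by chance holds for independent sets of normally distributed values. Here the same rats recur, and some sets entered only through the value then marked, such as Atp5f1 in the group of dust rat 27. The count of 15 can therefore not be set against that rate. In the 10 mg/m3 study, 4 of them lay in the air group of day 1. Rat 20 had 17.8 CPM of Cox6a2 with 1.65 CPM in the nearest rat, and 10.8 CPM of Cox8b with 3.95 CPM in the nearest. Its cardiac markers summed to 2075 CPM, the highest of that group. Rat 17 had 22.6 CPM of Cox8a with 55.3 CPM in the nearest rat, and rat 21 had an Rnr1 plus Rnr2 share of 3.01% with 0.314% in the nearest.

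Dust rat 27 of the same study and day, the library with the lowest total, was marked 4 times. It had 0 CPM of Ndufs6 with 1.06 CPM in the nearest rat, 5.76 CPM of Atp5f1 with 0.109 CPM in the nearest, an Rnr1 plus Rnr2 share of 2.62% with 0.819% in the nearest, and a summed member level of 4201 CPM with 5446 CPM in the nearest. At day 7, air rat 37 had 5.67 CPM of Cox6a2 with 0.972 CPM in the nearest rat and a share of 4.43% with 1.48% in the nearest. Its cardiac markers summed to 1385 CPM.

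In the 30 mg/m3 study, Ndufa1-2 was at 16.1 CPM in air rat 53 of day 1 with 0.425 CPM in the nearest rat, and at 61.98 CPM in air rat 87 of day 27 with 14.8 CPM in the nearest. Cox6a1 was at 235 CPM in dust rat 57 of day 1 with 172 CPM in the nearest rat, and at 196 CPM in dust rat 89 of day 27 with 135 CPM in the nearest. Cox8a was at 56.0 CPM in air rat 83 of day 27 with 63.4 CPM in the nearest.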

How the results depend on the processing

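Counts of members called changed by over 1.5 times as follows. With DESeq2 the count became 1 at 10 mg/m3 on day 1, at 30 mg/m3 on day 7, in the mean of the days at 30 mg/m3 and in the difference between doses, 17 in air from day 1 to 7 and 6 from day 1 to 27 at 10 mg/m3. In the same order, DESeq2 called 3.03%, 0.354%, 2.7%, 5.08%, 9.36% and 6.03% of all genes. limma voom gave 10 in air from day 1 to 7 at 10 mg/m3, no filter on low counts 3, and library totals alone 4 from day 1 to 27. Of all genes, 8.29%, 2.62% and 3.15% were then called. With the Rnr1 plus Rnr2 share as a covariate the counts in air were 1 and 0 at 10 mg/m3 and 2 and 0 at 30 mg/m3, from day 1 to 7 and to 27. In these fits 5.69% and 0.0319% of all genes were called at 10 mg/m3, and 0.244% and 1.19% at 30 mg/m3. The compared groups alone gave 1 on day 7 at 30 mg/m3, beside 0.242% of all genes. The cardiac score as a covariate gave 1 in the mean of the days at 30 mg/m3, beside 1.88% of all genes. Without air rats 51 and 53 the count was 1 in that mean, 4 in air from day 1 to 27 and 2 between doses, where 1014 of 15775, 1052 of 15775 and 1421 of 16154 genes were called. The slope on the share had 24 members with the 10 mg/m3 study alone and 26 without libraries above 2%, and the cardiac slope had 4 with the 30 mg/m3 study alone. Beside these, 17.1%, 15.4% and 1.87% of all genes were called. The cause was not tested for any of these, and some of these fits also held fewer libraries.

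Single genes changed sign with the share as a covariate: Uqcr10 in air from day 1 to 27 at 10 mg/m3 (0.087), Ndufc1 at 30 mg/m3 on day 7 (-0.14), Cox7c in the mean at 30 mg/m3 (-0.039), Atp5j in air from day 1 to 27 at 30 mg/m3 (-0.018) and Ndufaf4 between doses (-0.00069). With the cardiac score Cox6b2 (-0.11) and Cox6a2 (0.28) did so at 30 mg/m3 on day 7, and the cardiac slope of Cox4i2 was 0.030 with the 30 mg/m3 study alone. The members' median moved by more than the median SE of single members in 6 of 126 pairs of a result and a setting. That SE belongs to single genes and does not measure the spread of a median.

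Leaving out each library in turn gave counts of 0 to 6 at 10 mg/m3 on day 1, 0 to 1 at 30 mg/m3 on day 7 and in its mean, 0 to 4 between doses, 1 to 24 and 0 to 16 in air at 10 mg/m3, 5 to 13 in air from day 1 to 27 at 30 mg/m3, 42 to 56 for the share and 2 to 4 for the cardiac slope. These ranges stand without the share of all genes called in each fit, and describe only how far the counts moved. The difference in the share (dust minus air, percentage points) was -0.077 to 0.884, 0.193 to 1.19 and -0.525 to -0.199 at days 1, 7 and 27 of 10 mg/m3, and -0.255 to -0.100, -0.466 to -0.380 and -0.278 to -0.029 of 30 mg/m3. No paired analysis was possible because every title number is unique and air and dust groups share 0 numbers. Genes with few reads, such as Cox6a2 and Ndufs6, are limited by depth.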
